A study of Sorghum bicolor with 34 samples.

Results

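The response of sorghum roots to limiting phosphorus was estimated as 1 effect common to 3 root regions. It compared all 5 RNA-seq libraries of plants on limiting phosphorus (LP) with all 5 on sufficient phosphorus (SP), with root region as a block. These are 10 of the 34 samples of the series. The plants were BTx623, the inbred line behind the sorghum reference genome, raised in hydroponics. LP solution held 2.5 μM phosphate and SP solution 45 μM, and roots were cut at day 10. Every plant, LP plants included, was started in SP solution. The root apex, taken from 0 to 2 cm behind the tip of the seminal root, and the elongation zone, from 2 to 4 cm, have 2 libraries per phosphorus level, while the lateral root apex, 0 to 2 cm, has 1. A replicate pooled 10 plants. The tissue field of root apex LP replicate 2 names the whole root, and its title put it with the root apex here.

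A plant short of phosphate takes up more of it, frees it from organic compounds and saves it within the cell. In Arabidopsis this programme is switched on by PHR transcription factors, which SPX domain proteins hold back while inositol pyrophosphates signal that phosphate is plentiful. Membrane phospholipids are partly replaced by galactolipids and sulfolipids, which carry no phosphate. PHO2 lowers phosphate transporters while phosphate is sufficient and is itself turned down by a microRNA during starvation. The gene roles given below are those of the matched Arabidopsis genes.

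The libraries held 10114584 to 19067049 estimated counts over 47110 transcript IDs, of which 25608 (54.36%) passed the filter on low counts. Only 775 IDs (1.645%) could be paired with a gene, so most transcripts below have no name. Lateral root apex SP and elongation zone LP replicate 2 stood apart, with 27753 and 27578 transcripts detected against 31076 to 36028 in the other libraries, and the 20 most abundant transcripts took 16.1% of the counts of lateral root apex SP against 6.38 to 11.2% elsewhere. Fragment length, read from transcript length minus effective length, was 167 to 169 bases in the lateral libraries and elongation zone replicate 2 and 185 to 190 bases in the rest, with SP and LP equally represented in each class. Total counts, detected transcripts, the share of the top 20, green tissue markers and dividing cell markers did not separate LP from SP (exact permutation within region, two-sided, p from 0.444 to 0.972 for 5 measures, adjusted p = 0.972 for each, smallest possible p 0.0278, n = 5 libraries per level). Root apex LP replicate 2 was most like root apex LP replicate 1 (r = 0.937 for log2 CPM over tested transcripts, which share depth and abundance differences), and its r was at most 0.882 with a library of another region. Elongation zone LP replicate 2 was most like the lateral LP library (r = 0.868), a correlation slightly above that with its own region (0.861). The dividing cell marker EER90980, matched to a microtubule-associated protein, stood at 52.7 to 113 CPM (counts scaled to a common library size) in the root apex, 59.2 and 119 CPM in the lateral root apex and 4.48 to 11.6 CPM in the elongation zone, whereas EER98994, matched to the same gene, had 33.5 to 130 CPM in root apex libraries and 161 to 391 CPM in elongation zone libraries. The summed level of the 5 dividing cell markers was 382 to 436 CPM in SP and 245 to 579 CPM in LP. In LP it was 251 and 245 CPM in the root apex and 251 CPM in laterals, below every SP library. The LP elongation zone had 579 and 402 CPM against 382 and 413 CPM in SP, so the groups overlapped and only LP replicate 1 was above both SP libraries. A difference pooled over regions can hide shifts confined to some regions, so the permutation test does not mean that these markers were unchanged within regions. Of the green tissue markers, 4 of 6 transcripts were too low to test and their summed level was 67.9 CPM in lateral root apex SP against 22.1 to 37.9 CPM in the other 9 libraries. No gene that marks root tissue as such was among the lists. Every list member, markers included, comes from tables of matches to phosphate starvation genes or of genes the study chose on these samples. The markers are therefore no neutral measure of tissue.

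LP roots differed from SP roots in a small set of called transcripts, nearly all by more than 2-fold (all 64 that rose and 99 of the 103 that fell). Of the 25608 transcripts, 64 (0.25%) rose and 103 (0.402%) fell in LP, 167 (0.652%) in all, at an adjusted p under 0.05 in edgeR's quasi-likelihood test with its legacy setting. Without that setting, 221 were called higher and 299 lower. The 64 risers had a median log2 fold change of 2.53, from 1.02 to 7.54, and the 103 fallers a median of -2.66, from -11.47 to -0.97. The most negative value belongs to KXG34328, at 0 in every LP library, so that its size depends on the prior count. All 64 risers and 102 of the 103 fallers kept LP on the same side of SP within every region, where 4.55% of all tested transcripts lay above and 5.26% below in that way. All 5 LP libraries lay beyond all 5 SP libraries for 44 of the risers and 74 of the fallers, against 1.04% of all tested transcripts above and 1.41% below. These shares follow in part from the test that made the calls. Of the called transcripts, 5 risers and 5 fallers could be paired with a gene.

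**Figure D1:**
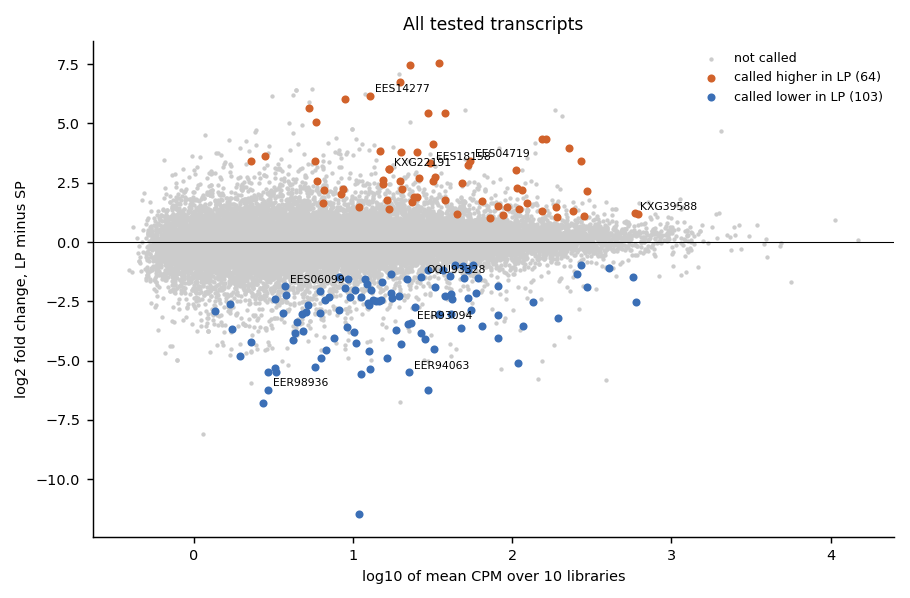
Each point is 1 of 25608 tested transcripts, with the log10 of its mean CPM over 10 libraries on the x axis and its pooled log2 fold change, LP minus SP, on the y axis. Orange points are the 64 transcripts called higher in LP, blue points the 103 called lower and grey points the rest, with the 10 annotated calls labelled, and the called transcripts lie across the range of abundance.

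The number of calls depended on single libraries. Without root apex SP replicate 2 no transcript was called in edgeR (1354 higher and 1216 lower at an unadjusted p under 0.05), while DESeq2 on all 10 libraries called 853 higher and 788 lower. The counts were 9 higher and 15 lower without root apex SP replicate 1, 12 and 24 without root apex LP replicate 1, and 15 and 19 without root apex LP replicate 2. They were 4 and 18 without elongation zone SP replicate 1, 17 and 32 without elongation zone LP replicate 1, 6 and 17 without elongation zone SP replicate 2, and 33 and 73 without elongation zone LP replicate 2. Leaving out lateral SP gave 67 and 135, of which 35 risers and 70 fallers were shared with the fit to all libraries. Leaving out lateral LP gave 60 and 122, with 30 and 70 shared. In either fit the region term absorbs the lateral library that is left. Both therefore estimate the phosphorus effect from the root apex and elongation zone alone and are not separate checks. The methods cut root apex and elongation zone segments from the same seminal roots, so libraries of equal number may come from the same plants and the 5 libraries of a level may not be 5 independent pools. With the plant pool as a correlated block in limma-voom (consensus correlation 0.259), 73 transcripts were called higher and 88 lower, and 51 and 69 of them were among the edgeR calls, an alternative chosen after seeing the data. With each pool's counts summed, 2 pools against 2, no transcript was called in edgeR (2273 higher and 1601 lower at an unadjusted p under 0.05). With fragment length class added to the model, 32 were called higher and 59 lower. Region took 43.6% of the variance of log2 CPM over tested transcripts, phosphorus after region 13.2%, the region by phosphorus term 20.7% and differences within groups 22.5%.

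Genes of galactolipid and sulfolipid synthesis supplied 3 of the 4 calls (14.8%, against 0.25% of all tested transcripts called higher) among 27 tested transcripts of 6 phosphate lists, and the fourth was an SPX gene. No member of the 6 lists was called lower in edgeR, where 1 had an unadjusted p under 0.05 and DESeq2 called 1. Of all 25608 tested transcripts, DESeq2 called 853 higher and 788 lower. Of the 27, 19 had a log2 fold change above 0 (51.8% of all tested transcripts did), their median was 0.99 against 0.03 over all tested transcripts, and 12 higher and 1 lower had an unadjusted p under 0.05, as had 1760 higher and 1551 lower of all 25608. The groups did not overlap, with LP above, for 9 of the 27 (1.04% of all tested transcripts). All 4 called members are also in a table of genes that the study chose on these samples. The excess over all tested transcripts is therefore no independent evidence. Across the libraries left out in turn, 0 to 2 of the 27 were called higher. As tissue was analysed in bulk, more RNA per cell and more cells of an expressing type cannot be told apart.

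EES14277 (SORBI_3007G211900), matched to MGD3, a monogalactosyldiacylglycerol synthase that makes galactolipid, had the largest rise among annotated transcripts. Its SP libraries gave 0.52 and 0.267 CPM in the root apex, 0.307 and 0.269 CPM in the elongation zone and no count in laterals. Under LP the values were 7.26 and 8.04 CPM, 42.9 and 42.8 CPM, and 24.8 CPM in the same order of regions. The transcript was close to absent from every SP library and present in every LP library, most strongly in the elongation zone. The log2 fold change was 6.18 ± 0.78 (SE, n = 5 libraries per level) with an adjusted p of 0.0183 in edgeR, and adjusted p lay between 0.0223 and 0.0793 when each library was left out in turn, under 0.05 in 6 of 10 cases. It was above 0.05 without root apex SP replicate 2, elongation zone SP replicate 1, elongation zone SP replicate 2 or elongation zone LP replicate 1. The other transcript matched to MGD3, EES05968, had 31.2 ± 10.9 CPM (SD, n = 5) in SP against 51.6 ± 35.1 CPM (SD, n = 5) in LP, and its log2 fold change of 0.50 was not called in edgeR (95% interval -0.53 to 1.52). Its LP values were 71.8 and 103 CPM in the elongation zone against 18.4 and 27.6 CPM in SP, while the root apex and lateral groups lay lower in LP.

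EES18158 (SORBI_3009G123300), matched to SQD1, makes the sugar donor of sulfolipid. SP values were narrow, 5.33 and 4.8 CPM in the root apex, 4.92 and 3.72 CPM in the elongation zone and 4.44 CPM in the lateral root apex. LP values were 29 and 15.1 CPM, 110 and 82.8 CPM, and 46 CPM. Every LP library was above every SP library, and the log2 fold change was 3.32 ± 0.47 (SE, n = 5 per level, edgeR adjusted p = 0.0263). KXG22191 (SORBI_3009G168600), matched to UGP3, a plastid enzyme that supplies UDP-glucose to the same pathway, lay between 2.42 and 3.99 CPM in SP. In LP it reached 8.25 and 10.2 CPM in the root apex, 67.3 and 37.3 CPM in the elongation zone and 30.6 CPM in the lateral root apex. Groups did not overlap, and the log2 fold change was 3.06 ± 0.47 (SE, n = 5 per level, edgeR adjusted p = 0.0361). With each library left out in turn, EES18158 kept an adjusted p under 0.05 in 3 of 10 cases (0.0439 to 0.0892), those without root apex LP replicate 2, elongation zone LP replicate 2 or lateral SP, and KXG22191 in 0 of 10 (0.0521 to 0.115).

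DGD1 adds the outer galactose of digalactolipid. Its 3 matched transcripts were not called in edgeR, with log2 fold changes of 0.87 ± 0.28 (SE, edgeR adjusted p = 0.212, unadjusted p = 0.0114) for EES10780, 0.60 for EES05202 (95% interval -0.07 to 1.27) and -0.03 for KXG27790 (-0.82 to 0.76), whose sign turned under some settings. DESeq2 called EES10780 higher (adjusted p = 0.0295). The galactolipid and sulfolipid list counted 3 higher and 0 lower of 7 tested in edgeR, and 4 and 0 in DESeq2, with a median log2 fold change of 0.87. Phospholipase D zeta, which breaks phospholipid down, had 3 tested transcripts of 4 and none was called in edgeR or DESeq2 or had an unadjusted p under 0.05. Their log2 fold changes were -0.04, -0.21 and -0.28, and the narrowest 95% interval, that of OQU77834, was -0.86 to 0.45. OQU77835 had 53 counts over all libraries and was not tested.

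SPX domain proteins bind inositol pyrophosphates and PHR factors. EES04719 (SORBI_3004G084900), matched to SPX2, gave 9.82 and 14.9 CPM in the SP root apex, 5.15 and 4.03 CPM in the SP elongation zone and 10.9 CPM in the SP lateral root apex. LP libraries gave 36.3 and 53.1 CPM, 130 and 126 CPM, and 150 CPM. All LP libraries were higher than all SP libraries, and the region that was lowest in SP came close to the highest in LP. The log2 fold change was 3.43 ± 0.55 (SE, n = 5 per level, edgeR adjusted p = 0.0381), and adjusted p was 0.0505 to 0.129 with each library left out in turn, so that the call was lost in all 10 cases. A further SPX2 match, EER90017 (SORBI_3010G185200), gave 35.1 and 44.3 CPM in the SP root apex, 26.4 and 25.7 CPM in the SP elongation zone and 17.4 CPM in SP laterals. LP values were 46.6 and 62, 477 and 383, and 202 CPM. Here the groups also did not overlap, but the root apex difference was small beside that of the other regions. The pooled log2 fold change was 2.58 ± 0.69 (SE, n = 5 per level) and was not called (edgeR adjusted p = 0.142).

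PHO2 is a ubiquitin-conjugating enzyme that lowers phosphate transporters. Its match EES19930 (SORBI_3009G228100) had 82.4 and 97.9 CPM in the SP root apex, 273 and 342 CPM in the SP elongation zone and 59.1 CPM in SP laterals. LP values were 18.1 and 14.9, 120 and 46.1, and 37.4 CPM. LP was lower within each region, but the groups overlapped, with elongation zone libraries the highest at both levels. The log2 fold change of -1.88 ± 0.36 (SE, n = 5 per level) missed the threshold (edgeR adjusted p = 0.0594). With 1 library left out at a time, it passed without lateral SP or without lateral LP (0.0403 to 0.178 over the 10 libraries), fits that both rest on the other regions. It was called lower in 7 of 21 other settings, DESeq2 (adjusted p = 2.25e-05) and limma-voom with quality weights among them. The SPX and PHO2 list counted 1 higher and 0 lower of 3 tested in edgeR, and 2 higher and 1 lower in DESeq2.

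**Figure D2:**
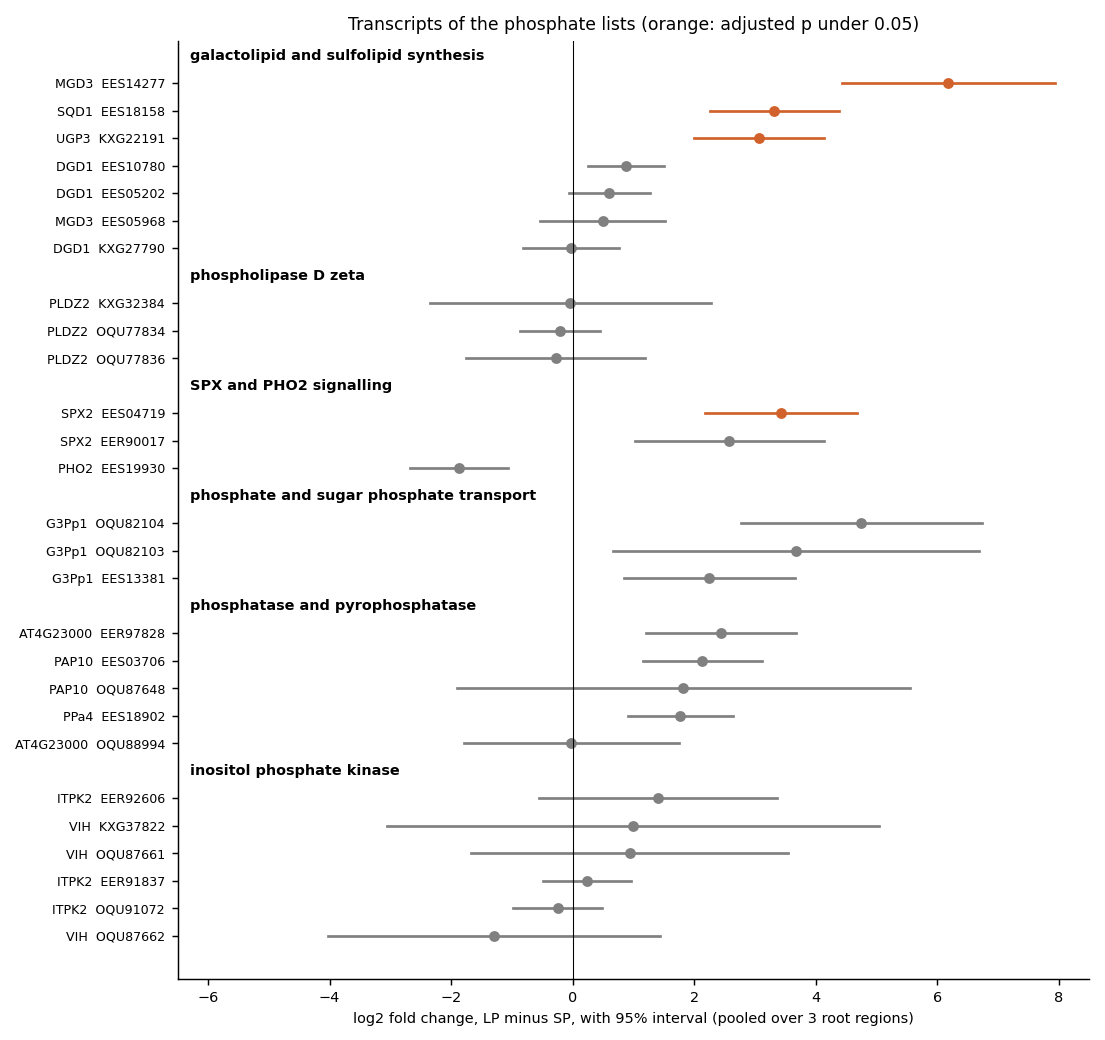
Points are the pooled log2 fold changes, LP minus SP, of the 27 tested transcripts of the 6 phosphate lists (x axis), with bars for the 95% interval and each row naming the Arabidopsis match and the transcript. The 4 called transcripts are orange, and 3 of them belong to galactolipid and sulfolipid synthesis.

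Transport was represented by 3 tested transcripts of 5, all matched to G3Pp1, a glycerol-3-phosphate permease. None was called in edgeR, where all 3 had an unadjusted p under 0.05, and DESeq2 called all 3 higher. Of all 25608 tested transcripts, 1760 were higher at an unadjusted p under 0.05 in edgeR and DESeq2 called 853 higher. OQU82104 had 0 to 0.852 CPM in the SP libraries, against 3.98 and 1.82 CPM in the LP root apex, 21.5 and 44.7 CPM in the LP elongation zone and 23.7 CPM in LP laterals. Its groups did not overlap, and its log2 fold change of 4.75 ± 0.87 (SE, n = 5 per level) just missed the threshold (edgeR adjusted p = 0.0545). OQU82103 is a transcript of the same gene (SORBI_3006G173000), and kallisto divides shared reads between such transcripts, so the values of either are less certain. It had a log2 fold change of 3.68 with a 95% interval of 0.67 to 6.69, and 0 CPM in elongation zone LP replicate 2 against 31.7 CPM in replicate 1. EES13381 gave 32.6 to 87.6 CPM in SP and 78.1 to 651 CPM in LP, with overlapping groups and a log2 fold change of 2.24 (edgeR adjusted p = 0.156). The high-affinity phosphate transporter match EER88333 had 90 counts over the 10 libraries and at most 26 in any of them, and was not tested, as was KXG31062 with 5 counts.

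Among phosphatases and pyrophosphatases, 0 of 5 tested transcripts were called in edgeR, with 3 higher at an unadjusted p under 0.05, the number that DESeq2 called higher. For all 25608 tested transcripts these numbers were 1760 in edgeR and 853 in DESeq2. EES03706, matched to the purple acid phosphatase PAP10, which frees phosphate from organic compounds at the root surface of Arabidopsis, had 3.83 to 21.8 CPM in SP and 27.6 to 62.2 CPM in LP (log2 fold change 2.13 ± 0.43, SE, n = 5 per level, edgeR adjusted p = 0.0705). It shares the gene SORBI_3003G314400 with OQU87648, which lay between 0 and 2.64 CPM. EER97828, a calcineurin-like metallophosphoesterase match, had 2.96 to 7.74 CPM in SP and 11.1 to 50.9 CPM in LP, a log2 fold change of 2.44 (edgeR adjusted p = 0.0906). EES18902, matched to the soluble pyrophosphatase PPa4, had 41 to 94.1 CPM in SP and 106 to 474 CPM in LP, a log2 fold change of 1.77 (edgeR adjusted p = 0.0857). For each of these 3 the LP and SP libraries did not overlap, with LP above, as for 1.04% of all tested transcripts, although the adjusted p stayed above 0.05. Kinases of inositol phosphates and pyrophosphates had 0 of 6 called in edgeR and in DESeq2 and 0 at an unadjusted p under 0.05, with log2 fold changes from -1.30 to 1.40. The widest interval, -3.06 to 5.04 for KXG37822, includes large changes either way, and OQU87661 and OQU87662 share reads as transcripts of a common gene.

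The measured difference was of unlike size in the 3 regions, although the phosphorus by region interaction was called for only 1 of the 27 transcripts. Over the 27 tested transcripts, the median difference of mean log2 CPM, LP minus SP, came to 0.45 for the root apex, 1.00 for the elongation zone and 2.76 for laterals, against -0.03, -0.09 and 0.10 over all tested transcripts. The difference was smallest in size in the root apex for 19 of the 27, while this held for 12464 of the 25608 tested transcripts. All 4 called members had their smallest difference in the root apex. In the order root apex, elongation zone and laterals, EES14277 differed by 3.94, 6.69 and 7.61, EES18158 by 2.02, 4.44 and 3.34, KXG22191 by 1.73, 3.95 and 3.53, and EES04719 by 1.85, 4.77 and 3.77. None of these 4 passed the test of the phosphorus by region interaction, with edgeR adjusted p of 0.0623, 0.128, 0.15 and 0.0669 in that order. EER90017 passed it (edgeR adjusted p = 0.0378), with differences of 0.45, 4.03 and 3.52.

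**Figure D3:**
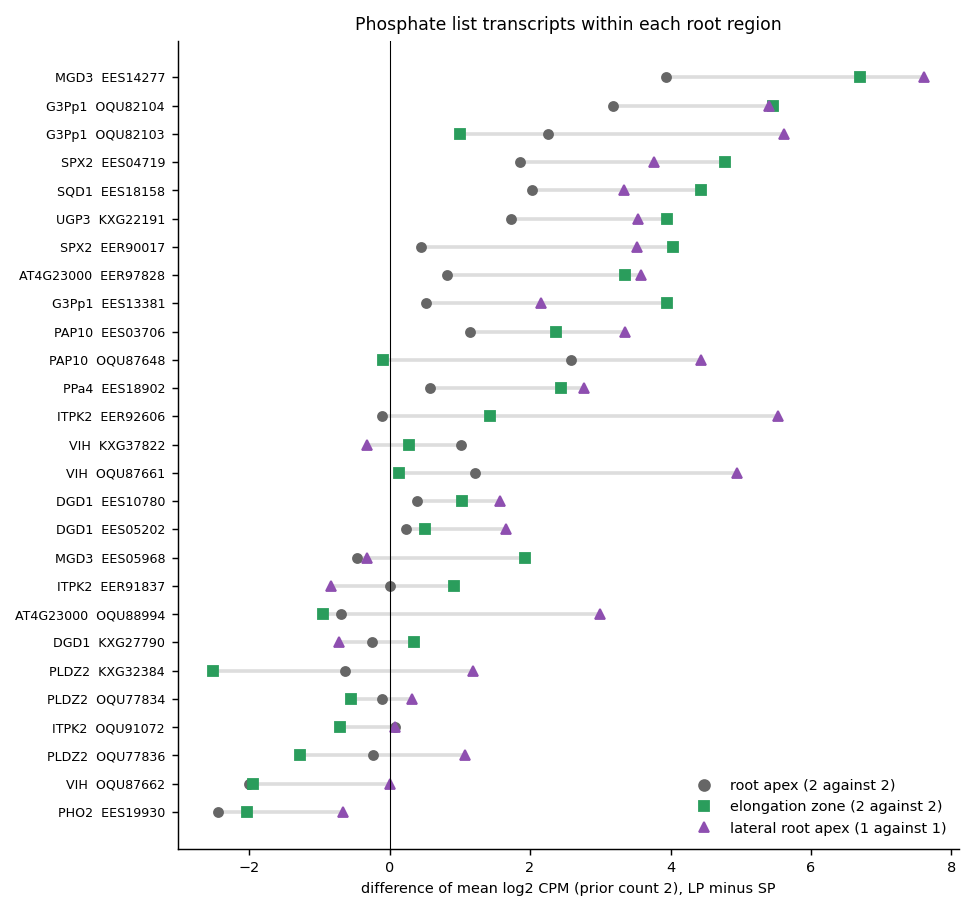
For each of the 27 tested transcripts of the phosphate lists, symbols give the difference of mean log2 CPM, LP minus SP (x axis), in the root apex (circles, 2 libraries against 2), the elongation zone (squares, 2 against 2) and the lateral root apex (triangles, 1 against 1), and the grey line spans the 3 values. For 19 of the 27 the root apex difference is the smallest in size.

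Over all 25608 transcripts the interaction was called for 108 (0.422%), including 2 of the 64 pooled risers and none of the 103 fallers. The lateral root apex, with 1 library per level, held the largest difference for 74 of the 108 and for 14380 of all 25608. The interaction count was 0 in edgeR without any of root apex SP replicate 1, root apex LP replicate 1, root apex SP replicate 2, root apex LP replicate 2, elongation zone SP replicate 1 or elongation zone SP replicate 2, with 3725 to 5711 transcripts at an unadjusted p under 0.05. It was 4745 without elongation zone LP replicate 1 and 672 without elongation zone LP replicate 2, and 3289 by DESeq2.

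Outside the phosphate lists, annotated fallers were of several kinds. EER93094 (SORBI_3001G012000), a cytochrome P450, one of a large family of oxidising enzymes, had a log2 fold change of -3.4 (SE 0.38, n = 5 per level, edgeR adjusted p = 0.0117). Its SP values were 27.3 and 42.6 CPM in the root apex, 46.6 and 26.2 CPM in the elongation zone and 68.3 CPM in laterals. LP values were 6.96 and 5.15, 2.37 and 2.62, and 3.61 CPM. The groups did not overlap in any region, and the call was lost only without root apex SP replicate 2 among the 10 libraries left out in turn (adjusted p at most 0.0531). EER94063 (SORBI_3001G216500), with a Band 7 domain found in membrane scaffold proteins, gave 68.7 and 40.7, 47.8 and 17.2, and 41.5 CPM in SP. In LP it gave 4.87 and 0.942, 0.303 and 0.458, and 0.417 CPM, so that only root apex LP replicate 1 was above 1 CPM. Its log2 fold change was -5.49 ± 0.70 (SE, n = 5 per level, edgeR adjusted p = 0.0189). The call was lost in 5 of 10 fits with a library left out, those without root apex SP replicate 1, root apex SP replicate 2, root apex LP replicate 2, elongation zone SP replicate 2 or elongation zone LP replicate 1 (adjusted p at most 0.0661).

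EER98936 (SORBI_3002G208700), matched to a glutamate receptor-like channel, had 4.23 and 2.88 CPM in the SP root apex, 8.14 and 12 CPM in the SP elongation zone and 1.31 CPM in SP laterals. It was at 0 in 4 of the 5 LP libraries and at 0.458 CPM, the only reads being 7 counts, in elongation zone LP replicate 2. The log2 fold change of -6.22 ± 1.00 (SE, n = 5 per level, edgeR adjusted p = 0.0375) rests on these few counts, and, with 1 library left out at a time, adjusted p stayed under 0.05 in 1 of 10 fits, that without elongation zone LP replicate 2 (0.0331 to 0.134). OQU93328 (SORBI_3001G521500), matched to a callose synthase, the enzyme of a cell wall glucan, had 33.1 and 29.3, 56.2 and 54.5, and 19.4 CPM in SP. LP values were 10.3 and 8.73, 24.3 and 20.9, and 8.06 CPM. LP was below SP in each region while the groups as a whole overlapped, and the log2 fold change was -1.45 ± 0.18 (SE, n = 5 per level, edgeR adjusted p = 0.0189). The call was kept in 4 of 10 fits, those without a lateral or an elongation zone LP library (0.0252 to 0.0774). EES06099 (SORBI_3004G002600), matched to HAC1, which in Arabidopsis reduces arsenate, a chemical analogue of phosphate, had 1.24 and 1.39, 8.22 and 10.4, and 7.84 CPM in SP. LP values were 0.298 and 0.44, 3.33 and 2.22, and 1.67 CPM. Groups overlapped across regions but not within them, and the log2 fold change was -1.86 ± 0.32 (SE, n = 5 per level, edgeR adjusted p = 0.047), with an adjusted p of 0.0677 to 0.178 when each library was left out.

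**Figure D4:**
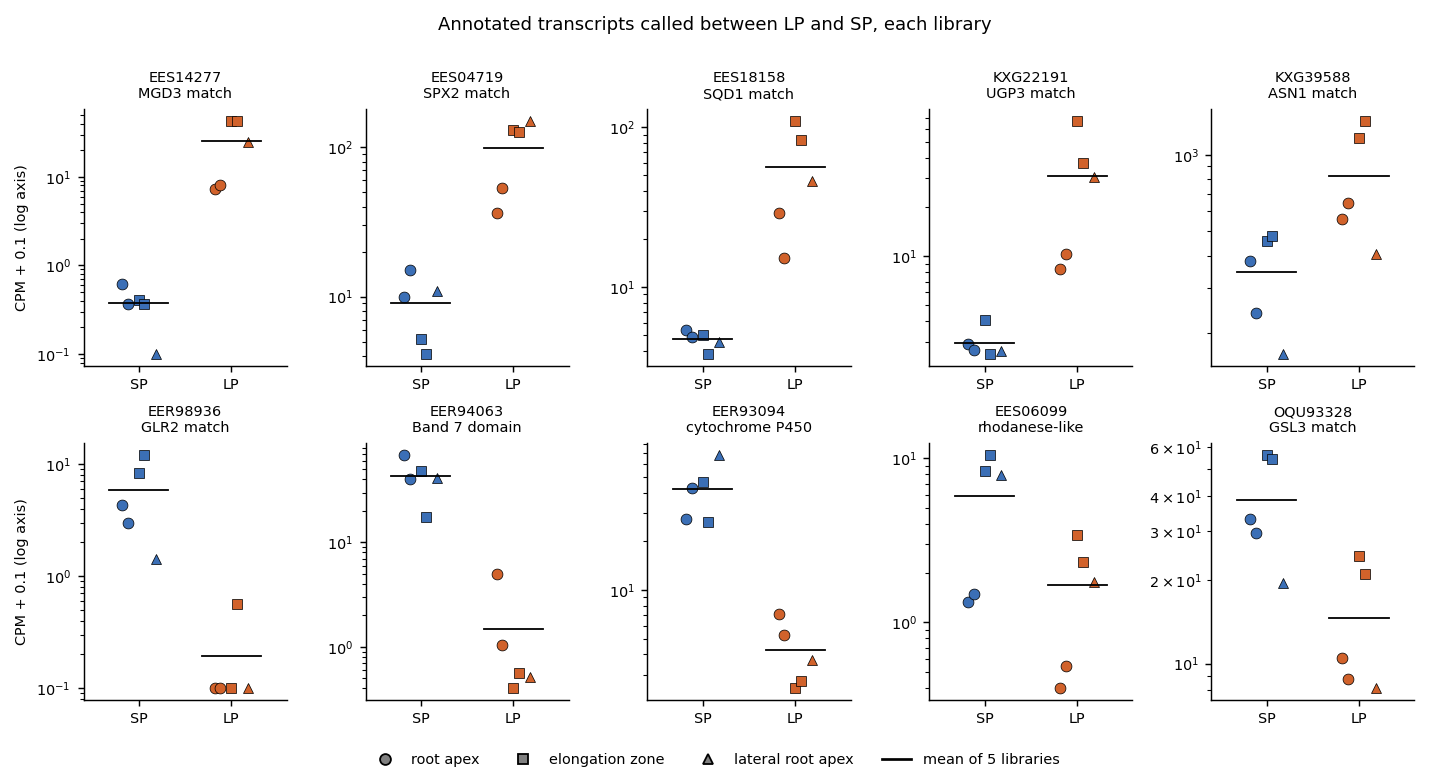
CPM plus 0.1 on a log axis in each SP (blue) and LP (orange) library for the 10 annotated transcripts called in the pooled comparison, with circles for the root apex, squares for the elongation zone, triangles for the lateral root apex and a bar for the mean of 5 libraries. The groups are separate for 7 of the 10, and KXG39588, EES06099 and OQU93328 differ within each region while overlapping across regions.

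The remaining annotated riser was KXG39588 (SORBI_3001G406800), matched to ASN1, an asparagine synthetase that stores nitrogen in an amide. It gave 383 and 239, 458 and 481, and 165 CPM in SP. In LP it had 559 and 647, 1163 and 1360, and 407 CPM. The values were higher in LP within each region, by 0.99, 1.42 and 1.30 on the log2 scale, and the pooled log2 fold change was 1.21 ± 0.21 (SE, n = 5 per level, edgeR adjusted p = 0.0452). Leaving out any library raised the adjusted p above 0.05 (0.0628 to 0.161). The other tested members of the nitrate list, among them nitrate reductase and nitrate transporter matches, were not called in edgeR or DESeq2, so that it counted 1 higher and 0 lower of 7. Its other ASN1 match, EES09082, ran from 0.298 to 118 CPM in LP and had a log2 fold change of 0.86 (95% interval -1.60 to 3.32).

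Of the transcripts with no annotation, EER99917 and EER94142 had the smallest p-values among fallers and risers. EER99917 lay between 12.5 and 37.2 CPM in the 5 SP libraries and between 0.303 and 0.903 CPM in the 5 LP libraries (log2 fold change -5.35 ± 0.46, SE, n = 5 per level, edgeR adjusted p = 0.0117). EER94142 had 6.31 and 6.78, 4.99 and 4.26, and 26.6 CPM in SP and 59.9 and 59.3, 31 and 30.7, and 96.3 CPM in LP (log2 fold change 2.74 ± 0.24, SE, n = 5 per level, edgeR adjusted p = 0.0117). OQU79316 ranged from 7.99 to 31.1 CPM in SP and from 87.7 to 1323 CPM in LP, highest in laterals, a log2 fold change of 3.97. OQU83039 ranged from 104 to 332 CPM in SP and from 7.64 to 45.8 CPM in LP, a log2 fold change of -3.55. The SP and LP libraries did not overlap for any of these 4, and of the 10 libraries left out one at a time, root apex SP replicate 2 alone removed the call of each (adjusted p at most 0.0531). Each call was also lost under the replicate blocks, with summed plant pools, and without both libraries numbered 2 of the root apex or of the elongation zone. Counting every setting other than single libraries left out, EER94142, OQU79316 and OQU83039 each lost the call in 6 of 21 and EER99917 in 5 of 20.

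The 10 lists outside the phosphate lists held 1 call, KXG39588. Over all 25608 tested transcripts, 1760 were higher and 1551 lower at an unadjusted p under 0.05 in edgeR. DESeq2 called 853 higher and 788 lower, and these numbers are the background for the lists that follow. Glucanases and chitinases, cell wall and defence enzymes that cut glucan and chitin, had 0 of 8 called in edgeR, with 5 lower at an unadjusted p under 0.05 (3 called lower by DESeq2), and a median log2 fold change of -1.25. The glucanase EES04194 had 7.58 to 312 CPM in SP and 0.251 to 6.21 CPM in LP (log2 fold change -4.80, edgeR adjusted p = 0.0898), and EES16254 had 13.1 to 187 CPM and 0.628 to 9.29 CPM (-3.94, edgeR adjusted p = 0.0697). The spread among SP libraries was wide for both, led by elongation zone SP replicate 2. The chitinase EES02809 had a log2 fold change of -1.74 (edgeR adjusted p = 0.0697), and its groups did not overlap, with LP below, as for 1.41% of all tested transcripts. Metal and peptide transport had 0 of 13 called in edgeR, with 1 higher and 4 lower at an unadjusted p under 0.05, the same numbers as DESeq2 called. In that list the oligopeptide transporter EES05808 had 322 and 419 CPM in the SP root apex against 3.98 and 3.27 CPM in LP, 980 against 21.6 CPM in laterals, but 18.9 and 27.9 against 8.48 and 16.8 CPM in the elongation zone. Its pooled log2 fold change of -4.36 was not called (edgeR adjusted p = 0.166), while its interaction was (edgeR adjusted p = 0.0378).

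WRKY, NF-YA and Myb factors, which are transcription factors, had 0 of 8 called in edgeR, with 1 higher and 1 lower at an unadjusted p under 0.05 and as many called by DESeq2. The background over all 25608 tested transcripts was 1760 higher and 1551 lower in edgeR and 853 and 788 called by DESeq2. EES04642, matched to WRKY40, had 13.8 to 53 CPM in SP and 71.8 to 153 CPM in LP (log2 fold change 1.39, edgeR adjusted p = 0.0981), whereas EER98905, matched to the same gene, had 4.03 to 14.9 CPM in SP and 0 to 3.08 CPM in LP (-3.64, edgeR adjusted p = 0.115). Groups were separate for each, in opposite directions, as they were for 1.04% of all tested transcripts with LP above and 1.41% with LP below. GRAS transcription factors had 0 of 22 called in edgeR, with 2 higher and 2 lower at an unadjusted p under 0.05 (1 called lower by DESeq2) and a median log2 fold change of -0.13. PEP carboxylase and malate enzymes had 0 of 5 and small auxin-up RNAs 0 of 3 called in edgeR, with 1 higher in each list at an unadjusted p under 0.05 and 1 called higher in each by DESeq2. Lipoxygenases of jasmonate synthesis (2 tested), green tissue markers (2) and dividing cell markers (5) had 0 called in edgeR and DESeq2 and 0 at an unadjusted p under 0.05. For sorghum transcripts in a table of genes the study chose on these samples, which is therefore no independent evidence, 4 (2.72%) were called higher and 3 (2.04%) lower of 147 tested in edgeR, against 0.25% and 0.402% of all tested transcripts. For those matched to Arabidopsis genes responsive to phosphate starvation, as far as their table is complete here, 5 (1.05%) were called higher and 4 (0.839%) lower of 477 tested, with a median log2 fold change of -0.03.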

How the data were processed

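RNA-seq of 10 libraries was analysed. Per the methods the authors used Trimmomatic to trim the reads, SAMtools to merge files and kallisto to quantify transcripts of the v3.4.1 sorghum annotation, with tool versions not given in the sources used here. The deposited tables hold estimated counts per transcript, not normalized, and TPM within each library. TPM and the deposited transcript and effective lengths served for description. Libraries were amplified by PCR without molecular identifiers, so counts are not all independent molecules. The methylation tables of the series hold the authors' own comparisons and were not used.

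Estimated counts were rounded and tested in edgeR 4.0.16 (limma 3.58.1, R 4.3.3) with TMM, filterByExpr by phosphorus level, region plus phosphorus as the model (6 residual degrees of freedom, common dispersion 0.327) and the quasi-likelihood test. The pooled edgeR fits used its legacy setting unless stated otherwise. P-values were adjusted by Benjamini and Hochberg over 25608 transcripts at a threshold of 0.05. CPM values are TMM-normalized, SE is the log2 fold change over the square root of F, and region differences used a prior count of 2. The interaction was an F test in a fit of 6 groups, in which the lateral libraries are assumed to vary like the others. That fit and the fit to summed plant pools did not use the legacy setting. Their counts and the pooled calls therefore come from different forms of the test. The script was tested on simulated data.

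Genes were paired through 2 annotation tables that accompany the paper. Annotated calls whose mean reached 1 CPM (up to 15 in each direction), called list members and, among IDs with no annotation, the 2 called rises and 2 called falls of smallest p were named. Uncalled list members are given by values where a list is described. The members, lists, tests and alternatives were chosen with earlier results of these data known. Alternatives covered DESeq2 1.42.0, limma-voom, normalization, filters, blocks and libraries left out. A planned search of promoters for a phosphate response motif was not run, since no promoter sequence was at hand.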

Additional observations from a re-analysis of the deposited data

Results flagged for a closer look

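Among 86 groups of 5 libraries (named and phosphate list transcripts and library measures), 8 held a library far from the other 4, where chance gives about 1 in 20. In lateral root apex SP these were 27753 detected transcripts, 16.1% of counts on the top 20 transcripts, 67.9 CPM of green tissue markers and 26.6 CPM of EER94142, against 4.26 to 6.78 CPM in the other SP libraries. Root apex LP replicate 1 had the lowest total of the LP libraries, 10114584 counts, and 4.87 CPM of EER94063 against 0.303 to 0.942 CPM in the other LP libraries. Elongation zone SP replicate 1 had 3.99 CPM of KXG22191 against 2.42 to 2.80 CPM in the other SP libraries, and elongation zone LP replicate 2 had 0.458 CPM of EER98936 against 0. Without lateral root apex SP and elongation zone LP replicate 2 together, 69 transcripts were called higher and 114 lower in edgeR, against 64 and 103 with all 10 libraries.

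The LP response was called different between regions for 2 list transcripts in edgeR's interaction test, which called 108 (0.422%) of all tested transcripts. As given above, the number of interaction calls depended on single libraries. EER90017, an SPX2 match, differed by 0.45 in the root apex and by 4.03 and 3.52 in the elongation zone and lateral root apex (adjusted p = 0.0378). EES05808, an oligopeptide transporter, differed by -6.62, -0.94 and -5.49 in the same order (adjusted p = 0.0378).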

How the results depend on the processing

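Counts are given as higher and lower in LP, against 64 and 103 in the main fit, which used edgeR's legacy setting. DESeq2 called 853 and 788, including all of these, limma-voom with quality weights 278 and 294, and the fit without edgeR's legacy setting 221 and 299. Both plant pool fits, the crossed numbers and the fit without lateral SP and elongation zone LP replicate 2 were chosen after seeing the data. The plan named no legacy setting for the main test and held that setting as an alternative, but that alternative is the same as the main fit. The fit without the legacy setting is therefore closer to the planned main test, although it was added later as an alternative. No filter on low counts gave 125 higher, and at least 10 counts in every library 141 and 158. Dropping the region block gave 10 and 12, and adding fragment length class 32 and 59. The replicate block of 5 region and number pairs gave 0 and 0 (1272 and 1287 at an unadjusted p under 0.05), as did crossed numbers (1182 and 1175), both root apex libraries numbered 2 left out (1147 and 1075), both elongation zone libraries numbered 2 left out (1352 and 1547) and summed plant pools (2273 and 1601). Same-numbered SP and LP libraries deviated together with r = -0.01 in the root apex and 0.16 in the elongation zone, so the numbers were not taken as pairs. For root apex and elongation zone libraries of the same number, which may share plants, r was 0.046 in SP and 0.30 in LP. Leaving out each library gave 0 to 67 higher and 0 to 135 lower. Of the phosphate lists, 12 higher were called by DESeq2, 8 without the legacy setting, 2 without both lateral libraries, 1 without lateral SP and elongation zone LP replicate 2, 0 under either replicate block, without either pair numbered 2 or with summed pools, and 0 to 2 with each library left out. In DESeq2, limma-voom, no filter, the stricter filter, no lateral libraries, the fit without the legacy setting and the fit without lateral SP and elongation zone LP replicate 2, 1 was called lower, and 0 to 1 with each library left out.

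The interaction count of 108 was 3289 in a DESeq2 likelihood ratio test, 325 with no filter, 15 with the replicate block and 0 to 4745 with each library left out. The cause of these shifts was not tested. The 14 named calls kept their direction in all 429 values under alternatives and lost the call in 174. Sign changed for 7 uncalled phosphate list transcripts. KXG27790 was 0.21 in limma-voom, 0.15 without the region block, 0.18 without lateral libraries, 0.0202 without root apex number 2, 0.36 without lateral SP and elongation zone LP replicate 2, 0.00999 with the plant pool block and 0.42 with summed pools. Without root apex number 2, KXG32384 was 0.23, OQU88994 0.21 and KXG37822 -0.64. Without elongation zone number 2, KXG32384 was 0.41, OQU77834 0.0697, OQU77836 0.26, OQU88994 0.46 and EER91837 -0.0526, and KXG32384 was 0.11 without lateral SP and elongation zone LP replicate 2. With each library left out, the ranges were -0.40 to 0.16 for KXG27790, -0.87 to 0.32 for KXG32384, -0.68 to 0.073 for OQU77836, -0.59 to 0.34 for OQU88994 and -0.57 to 2.28 for KXG37822. The filter on low counts kept 3 phosphate list transcripts, with 5 to 90 counts over the 10 libraries, out of the test.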
